A study of Mus musculus with 12 samples.

Results

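Axon guidance ligands and receptors are the signals and sensors by which growing axons and migrating cells read their surroundings. They were taken here as the autosomal protein-coding genes whose symbols have the stem Sema, Plxn, Efna, Efnb, Epha, Ephb, Robo, Slit or Unc5. This rule found 59 of the 20665 autosomal protein-coding genes in the RefSeq annotation. They are 30 ligand genes (20 semaphorins, 7 ephrins and 3 Slits) and 29 receptor genes (7 plexins, 14 Eph receptors, 4 Robo receptors and 4 Unc5 netrin receptors). Unc5a to Unc5d were counted as members because Unc5 already ends in a number. Unc50 has a matching symbol but is no netrin receptor and was left out. Efnb1, Plxna3 and Plxnb3 lie on the X chromosome and are not members.

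Binding of SOX2, a transcription factor of pluripotent and neural stem cells, was mapped by ChIP-seq (sequencing of DNA pulled down with an antibody to the fixed protein) in E14, a mouse embryonic stem cell line. The 12 libraries fell into 4 groups of 3: SOX2 ChIP from mitotic cells, input DNA from mitotic cells, SOX2 ChIP from asynchronous cells and input DNA from asynchronous cells. All cells grew in serum and leukemia inhibitory factor, with CHIR99021, which inhibits GSK3, and PD184352, which inhibits MEK. Mitotic cells had been held overnight in nocodazole, a microtubule poison, fixed, stained and sorted for H3S10p, a phosphorylated histone of condensed chromosomes, and asynchronous cells had not. All libraries come from this 1 line. The replicates of each condition were pooled into 1 list of regions by the authors, so that no value below has a replicate error and no difference between the conditions could be tested. The mitotic list holds 84 distinct regions and the asynchronous list 10351. Their names carry q-value tags read as 0.05 for the mitotic and 0.01 for the asynchronous list. Sequencing depth is unknown, and intervals cover counting error only. The lists hold no expression values, so the cell type could not be checked by RNA. The genes of the stem cell factors Sox2, Pou5f1, Nanog, Esrrb, Klf4 and Tfcp2l1 all had an asynchronous region within 50 kb, as did 47.2% of all autosomal protein-coding genes, so this is no check of the cell type.

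Semaphorins signal mainly through plexins, ephrins through Eph receptor tyrosine kinases, and Slits through Robo receptors, while Unc5 proteins are receptors for netrins that mediate repulsion. Class 3 semaphorins are secreted, most other vertebrate classes span the membrane, and Sema7a is held by a lipid anchor, as are the ephrin-A ligands. Ephrin-B ligands cross the membrane. Many of these genes are also used outside the nervous system, in blood vessel formation and tissue boundaries. Many are long genes, and a long gene offers more room for a region, so each member was set beside the 100 other protein-coding genes nearest to it in span.

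No region of either list reached a promoter window of a member. Such windows, from 250 bp before to 50 bp after a transcription start, are given by RefSeq (GRCm38.p6, the assembly called mm10) for 51 of the 59 members, in 67 windows. None of the 67 was overlapped by an asynchronous region, where a count of 0 allows up to 4.48%, and 1.61% of all 31396 autosomal windows were. The shortest distances from a region's midpoint to an annotated start were at Sema4c, Ephb6, Sema4a and Sema4b. Their windows are shown because they are the member promoters nearest to SOX2 regions, followed by that of Epha4, which shared the highest count of regions with Slit3. Each is written 5′ to 3′ on the gene's strand, with capitals for the letters ACAAAG or ACAATG, the core of SOX motifs, on either strand.
Sema4c, chr1:36557508-36557807, minus strand: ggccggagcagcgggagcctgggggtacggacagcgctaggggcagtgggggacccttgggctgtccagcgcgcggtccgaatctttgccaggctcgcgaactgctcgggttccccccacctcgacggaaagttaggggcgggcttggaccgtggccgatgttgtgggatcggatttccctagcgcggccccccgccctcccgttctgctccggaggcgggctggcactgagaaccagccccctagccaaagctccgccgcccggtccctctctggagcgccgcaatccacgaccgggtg
Ephb6, chr6:41605261-41605560, plus strand: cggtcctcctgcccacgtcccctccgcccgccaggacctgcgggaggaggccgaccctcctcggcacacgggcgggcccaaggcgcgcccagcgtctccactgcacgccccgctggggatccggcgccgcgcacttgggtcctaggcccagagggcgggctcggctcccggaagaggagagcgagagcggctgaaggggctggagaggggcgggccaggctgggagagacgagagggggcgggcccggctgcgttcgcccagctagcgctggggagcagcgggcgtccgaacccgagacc
Sema4a, chr3:88458835-88459134, minus strand: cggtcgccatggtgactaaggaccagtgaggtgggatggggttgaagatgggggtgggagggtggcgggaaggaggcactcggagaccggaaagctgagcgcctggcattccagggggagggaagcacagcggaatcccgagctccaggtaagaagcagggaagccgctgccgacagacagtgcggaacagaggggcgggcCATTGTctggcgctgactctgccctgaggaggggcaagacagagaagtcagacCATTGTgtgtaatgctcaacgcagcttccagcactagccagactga
Sema4b, chr7:80198338-80198637, plus strand: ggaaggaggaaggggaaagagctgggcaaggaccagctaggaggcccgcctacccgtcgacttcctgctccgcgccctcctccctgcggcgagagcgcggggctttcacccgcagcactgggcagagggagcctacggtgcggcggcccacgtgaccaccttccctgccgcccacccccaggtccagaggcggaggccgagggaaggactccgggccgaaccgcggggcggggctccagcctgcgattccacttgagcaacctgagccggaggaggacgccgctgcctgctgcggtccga
Epha4, chr1:77515039-77515338, minus strand: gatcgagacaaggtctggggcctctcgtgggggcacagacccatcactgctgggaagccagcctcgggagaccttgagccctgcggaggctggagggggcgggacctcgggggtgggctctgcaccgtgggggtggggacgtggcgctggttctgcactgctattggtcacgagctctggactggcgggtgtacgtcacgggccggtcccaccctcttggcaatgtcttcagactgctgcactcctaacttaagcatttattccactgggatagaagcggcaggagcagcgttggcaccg

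Of these 5 windows, that of Sema4a held capitals, with 2 matches to ACAATG read on the other strand as CATTGT. Among the 67 member windows, ACAAAG was found in 9 (13.4%) and ACAATG in 6 (8.96%). They were found in 18.6% and 12.2% of all autosomal windows. The octamer letters ATGCAAAT, bound by the SOX2 partner OCT4, were in none of the member windows and in 1.75% of all windows. All motifs were searched on both strands, and the matches within a printed window did not overlap each other. Member windows were richer in G and C, with a median of 64.3% against 53.0% in all windows. Whether this accounts for the lower share of these A- and T-containing letters was not tested. A SOX match was present in 7 of the 42 windows of members with a region within 50 kb (16.7%) and in 7 of the 25 windows of members without one (28.0%). The share was 20.9% over all member windows and 28.1% over all autosomal windows. Some genes have several windows, so these counts are not independent, and the difference was not tested.

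Asynchronous SOX2 regions lay near most of the guidance genes, and about as often as near other genes of their length. The window of 50 kb around the gene held a region's midpoint for 38 of the 59 members (64.4%, exact 95% interval 50.9 to 76.4%). The share was 60.9% for length-matched genes, inside that interval, and 47.2% for all autosomal protein-coding genes. The members had 85 regions, on average 1.44 ± 1.62 per gene (SD over 59 genes). The mean was 1.39 for length-matched genes and 0.803 for all genes. Members had a median span of 46.3 kb, against 17.5 kb for all genes. Above their own length-matched mean were 28 members, and below it were 31. No region was shared by a pair of members, so that the 85 were distinct.

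**Figure D1:**
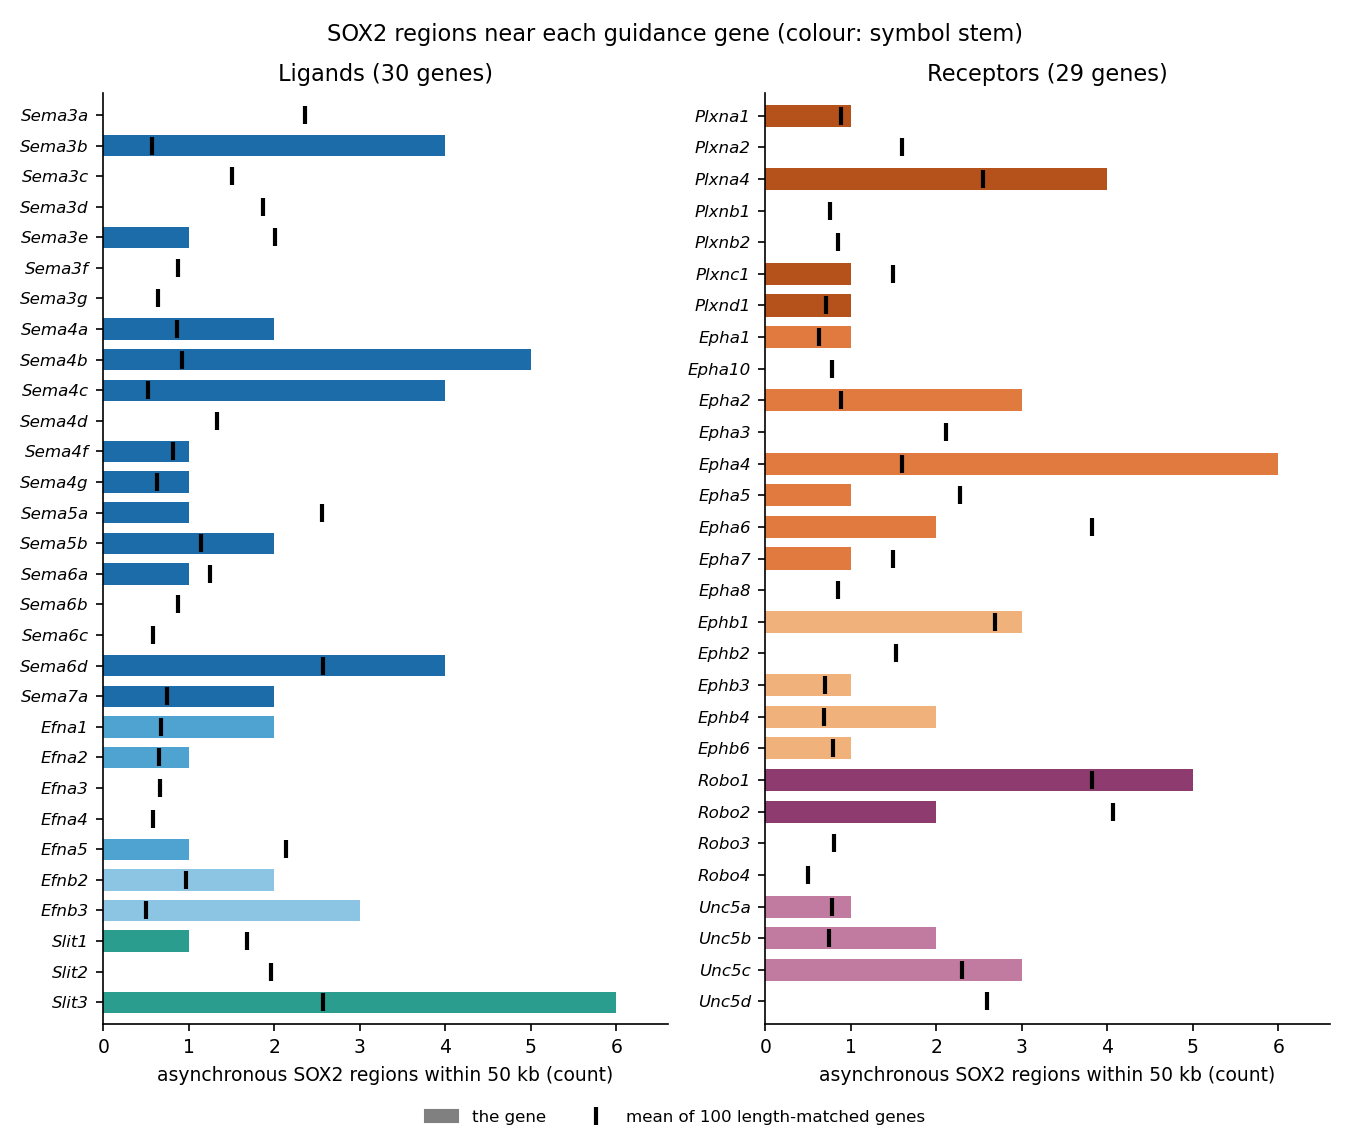
Number of asynchronous SOX2 regions with midpoint within 50 kb of each guidance gene (bars, coloured by stem; 30 ligands on the left, 29 receptors on the right) and the mean over the 100 protein-coding genes nearest in span (black ticks). Epha4 and Slit3 reach 6 regions, and 21 genes have no bar because they have none.

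The counts were unevenly spread over the members. No region was found for 21 members and 1 region for 17, while 12 members with 3 or more held 50 of the 85 regions. Members with 3 or more were 20.3% of the list, against 18.5% of length-matched genes and 7.75% of all genes. The ligand genes had a region in 19 of 30 cases (63.3%, length-matched 58.9%) and the receptor genes in 19 of 29 (65.5%, length-matched 63.0%). Ligands averaged 1.47 regions per gene, against 1.23 for length-matched genes. Receptors averaged 1.41, against 1.56 for length-matched genes.

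By stem, with the 50 kb window, the mean number of regions stood above that of length-matched genes for Sema, Efnb, Slit and Ephb and below it for Plxn, Efna, Epha, Robo and Unc5. The values were 1.40 per gene for 20 Sema genes, against 1.23 length-matched. For 2 Efnb genes they were 2.50, against 0.735. For 3 Slit genes they were 2.33, against 2.07, and this excess came from Slit3. For 5 Ephb genes they were 1.40, against 1.28. The stems below their matched means were Plxn with 1.00 (7 genes, matched 1.26), Efna with 0.800 (5 genes, matched 0.942), Epha with 1.56 (9 genes, matched 1.60), Robo with 1.75 (4 genes, matched 2.30) and Unc5 with 1.50 (4 genes, matched 1.60). Over the 13 other settings (12 for Unc5, 1 of them with Unc50 alone), Efnb and Slit stayed above their length-matched means in each. The direction turned under at least 1 setting for the other 7 stems. All settings recount the same few genes and largely the same regions, so no direction is read for any stem. Of the 9 stems, each had an exact interval for the share of its genes with a region that included the length-matched share.

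**Figure D2:**
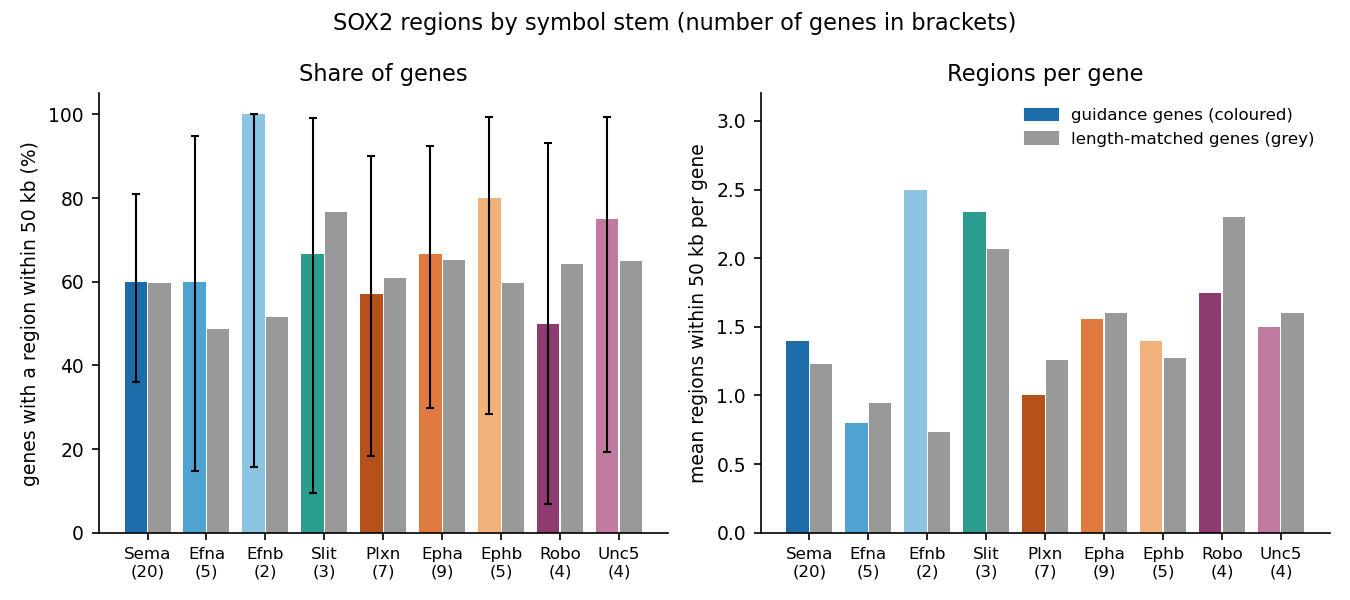
Share of genes with an asynchronous region within 50 kb (left, %, with exact 95% intervals for the guidance genes) and mean number of regions per gene (right), for each stem (coloured) and its length-matched genes (grey). The intervals are wide because stems hold 2 to 20 genes, and every grey bar on the left lies within the interval beside it.

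Among the semaphorins, grouped by class after the values were seen, the class 4 genes had the most regions. A region was present at 5 of the 6 class 4 genes (83.3%, exact interval 35.9 to 99.6%), against 50.3% of length-matched genes and 47.2% of all genes, both inside that interval. There were 13 regions in all, a mean of 2.17 per gene, against 0.847 for length-matched genes. Sema4b, a transmembrane semaphorin, had 5 regions, 4 of them inside the gene, against a length-matched mean of 0.92. They lay on chromosome 7 at 80152892 to 80153093, 80188855 to 80189108, 80199884 to 80200102, 80215379 to 80215610 and 80221288 to 80221637. The second of these was 2.11 kb from one annotated start and the third 1.41 kb from another, whose promoter is printed above. Sema4c, a ligand of plexin-B receptors, had 4 regions, against a length-matched mean of 0.52. A pair inside the gene, at chromosome 1, 36556536 to 36556790 and 36557090 to 36557341, had midpoints 0.894 and 0.342 kb downstream of the start of the printed promoter. The other pair, 22.7 and 24.3 kb beyond the gene's 3′ end, had Cnnm3 as its nearest gene.

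Sema4a, a semaphorin of immune cells and retina, had 2 regions. One lay inside the gene at chromosome 3, 88457510 to 88457700, 1.28 kb from the start of the printed window, and the other 28.5 kb upstream, nearest to Lmna. Sema4f and Sema4g had 1 region each, 17.3 and 24.7 kb outside the gene and nearest to another gene in both cases. Sema4d, an activator of plexin-B1, had none within 50 kb, and its nearest was 52.3 kb away.

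The class 3 semaphorins stood at the other end of the family. Of 7 genes, 2 had a region (28.6%, exact interval 3.67 to 71.0%). The shares were 64.9% for length-matched genes and 47.2% for all genes, both inside that interval. Sema3a, a repellent of sensory and cortical axons, had none along 479 kb of gene, where length-matched genes averaged 2.36. Sema3c and Sema3d, guidance cues of neural crest and heart development, also had none, where length-matched genes averaged 1.50 and 1.87. Sema3f and Sema3g had none either. Sema3e, a ligand of plexin-D1, had 1 region, 42.7 kb upstream. Sema3b had 4, but all lay 17.9 to 46.7 kb outside the gene and were nearest to Gnai2, Hyal1 or Zmynd10. Its window held 11 other protein-coding genes, the most of any member.

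The remaining semaphorins were mixed. Sema6d, a transmembrane ligand of plexin-A1, had 4 regions, all inside its 578 kb, against a length-matched mean of 2.57. They lay 55.8, 91.9, 263 and 30.6 kb from the nearer end of the gene. Sema6a had 1 region, 25.9 kb outside, and Sema6b and Sema6c had none. Sema5b had a pair of regions 0.727 kb apart inside the gene, on chromosome 16 at 35587988 to 35588304 and 35588710 to 35589036. Its relative Sema5a had 1 region in 452 kb, where length-matched genes averaged 2.56. Sema7a had 1 region inside the gene and 1 at 40.7 kb.

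Slit3 and its paralogues differed widely in count. Slit3, a secreted repellent, had 6 regions inside its 587 kb, against a length-matched mean of 2.57. They lay on chromosome 11 at 35295109 to 35295463, 35351559 to 35351741, 35509173 to 35509650, 35576263 to 35576527, 35580921 to 35581155 and 35604851 to 35605065. None was closer than 104 kb to an end of the gene. Slit1, with a span of 149 kb, had 1 region inside, against a length-matched mean of 1.68. Slit2, at 326 kb, had none, and the nearest region was 402 kb from the gene, against a length-matched mean of 1.96 regions.

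The Slit receptors Robo1 and Robo2 are neighbours on chromosome 16 and are the longest members, at 1020 and 1555 kb. Robo1 had 5 regions, against a length-matched mean of 3.82. Within the gene they lay at 72071977 to 72072512, 72194324 to 72194733, 72475033 to 72475359 and 73011400 to 73011600, and the fifth was 49.4 kb beyond its 3′ end. Robo2 had 2, at 75365381 to 75365735 inside the gene and 28.0 kb outside it, against a length-matched mean of 4.07. Robo3, a divergent Robo of commissural axons, and Robo4, the endothelial Robo, had none, with the nearest region 298 and 284 kb away.

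**Figure D3:**
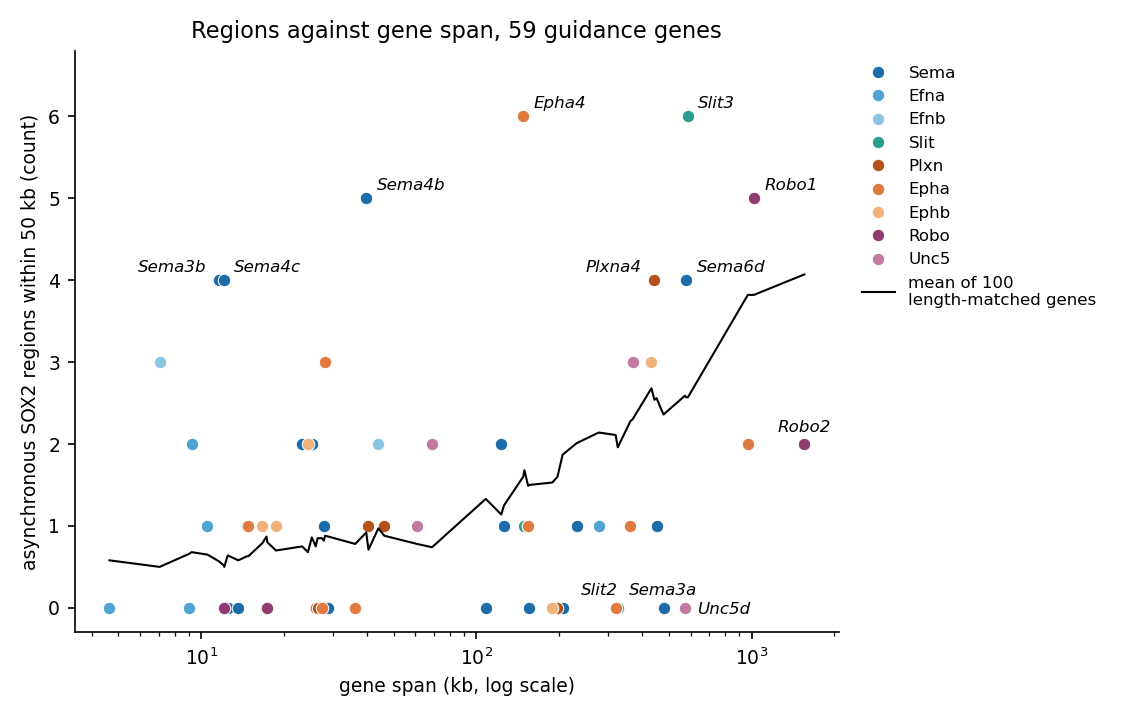
Asynchronous regions within 50 kb (count) against gene span (kb, log scale) for the 59 guidance genes, coloured by stem, with the mean of the 100 length-matched genes of each member as a line. Slit3 (587 kb) with 6 regions and Unc5d (573 kb) with none lie on opposite sides of the line.

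Longer guidance genes had somewhat more regions, and the shorter ones more than other short genes. Spearman's rho between span and count was 0.165 over the 59 members and 0.262 over all 20665 genes, all counted in the same list. Split at 100 kb, a limit chosen after the values were seen, the 27 longer members averaged 1.67 regions, against 2.18 for their length-matched genes. The 32 members of up to 100 kb averaged 1.25, against 0.731. Per megabase of joined windows, the shorter members had 10.8 regions, against 5.39 for all genes up to 100 kb. The longer members had 3.36, against 4.96 for all genes over 100 kb. These differences were not tested. Of the regions at the shorter members, 21 of 40 had the member as the nearest gene, against 44 of 45 at the longer ones. These shares have no length-matched values here.

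Both autosomal ephrin-B genes had regions, against 51.5% of length-matched genes and 47.2% of all genes. The ephrin-B and ephrin-A genes were not compared by a test. Efnb3, a ligand expressed at the spinal cord midline, had 3 within its window against a length-matched mean of 0.50. They were 0.614, 3.43 and 20.9 kb outside the gene, the first of them at chromosome 11, 69561610 to 69561917. None of the 3 had Efnb3 as its nearest gene, because they lay in or nearer to neighbouring genes such as Wrap53. Efnb2, a marker of arterial endothelium, had 2, at chromosome 8, 8619582 to 8619878 inside the gene and 8612060 to 8612353 at 5.03 kb beyond its 3′ end.

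The ephrin-A genes had 4 regions over 5 genes. Efna5, a repellent of retinal axons, had 1 inside the gene, 18.4 kb from its 5′ end, against a length-matched mean of 2.14. Efna1 had 2 at 44.2 and 45.7 kb, nearest to Thbs3. Efna2 had 1 at 30.1 kb, nearest to Midn, which was the widest of the 85 regions with 631 bp and the one with 2 listed summits. Efna3 and Efna4, which lie beside Efna1 on chromosome 3, had none.

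Of the Eph receptors, Epha4, which binds ephrins of both classes and guides corticospinal axons, had the most regions. Its 6 regions all lay inside the 148 kb gene on chromosome 1, against a length-matched mean of 1.60. The 3 nearest to its 5′ end, at 77504833 to 77505169, 77503004 to 77503209 and 77496854 to 77497130, were 10.1, 11.98 and 18.1 kb from the annotated start. A pair at 77453928 to 77454196 and 77452711 to 77453122 followed at 61.0 and 62.2 kb, and the last, at 77440536 to 77440829, at 74.4 kb. No other protein-coding gene lay in the window of Epha4.

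Epha2, a receptor of epithelial and pluripotent cells, had 3 regions, against a length-matched mean of 0.88. All were upstream, 9.73, 18.5 and 30.8 kb from its start, and the farthest was nearest to Arhgef19. Epha6 had 2 regions in 969 kb, where length-matched genes averaged 3.82, and Epha5 had 1 in 363 kb, where they averaged 2.28. Epha7 had 1 region just past its 3′ end, 0.338 kb outside the gene at chromosome 4, 28967618 to 28968064. Epha1 had 1, at 7.67 kb upstream. Epha3, a gene of 321 kb, had none, with its nearest region 205 kb away, where length-matched genes averaged 2.11. Epha8 and Epha10 also had none.

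The EphB receptors had a region in 4 of 5 cases (80.0%, exact interval 28.4 to 99.5%), against 59.6% of length-matched genes and 47.2% of all genes. Ephb1 had 3 inside its 433 kb, on chromosome 9 at 102205400 to 102205949, 102243218 to 102243488 and 102262046 to 102262547, all closer to its 5′ end than to its 3′ end. Ephb4, the venous partner of ephrin-B2, had 2, one of them inside the gene and 2.02 kb from its start. Ephb6, a receptor without kinase activity, had 1 at chromosome 6, 41604444 to 41604663, inside the gene and 0.958 kb from the start of the printed promoter. Ephb3 had 1 at 9.17 kb upstream. Ephb2, the neighbour of Epha8 on chromosome 4, had none, and its nearest region was 184 kb away.

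The plexins had regions in 4 of 7 cases (57.1%, exact interval 18.4 to 90.1%), against 60.9% of length-matched genes and 47.2% of all genes. Plxna4, a receptor subunit for class 3 semaphorins, had 4 regions inside its 444 kb, against a length-matched mean of 2.54. The first, at chromosome 6, 32144723 to 32145276, was 0.457 kb from the lower-numbered end of the gene and 554 bp wide. The others lay at 32200585 to 32200985, 32202705 to 32203117 and 32327180 to 32327412. Plxnc1 had 1 region inside the gene, Plxna1 had 1 at 24.6 kb outside, and Plxnd1, the receptor of Sema3e, had 1 at 16.8 kb upstream, nearest to Tmcc1. Plxna2, with a span of 197 kb, had none, and neither did Plxnb1 and Plxnb2, receptors of class 4 semaphorins.

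Of the Unc5 genes, Unc5c had 3 regions, against a length-matched mean of 2.30. A pair lay near its 3′ end, 33.5 and 15.3 kb inside the gene, at chromosome 3, 141801277 to 141801519 and 141819397 to 141819772, and the third 14.4 kb outside the gene, nearest to Bmpr1b. Unc5b, a receptor of endothelial tip cells, had 2 inside the gene, against 0.74, and Unc5a had 1 inside. Unc5d had none in 573 kb, and its nearest region was 737 kb away, the greatest distance among the members.

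**Figure D4:**
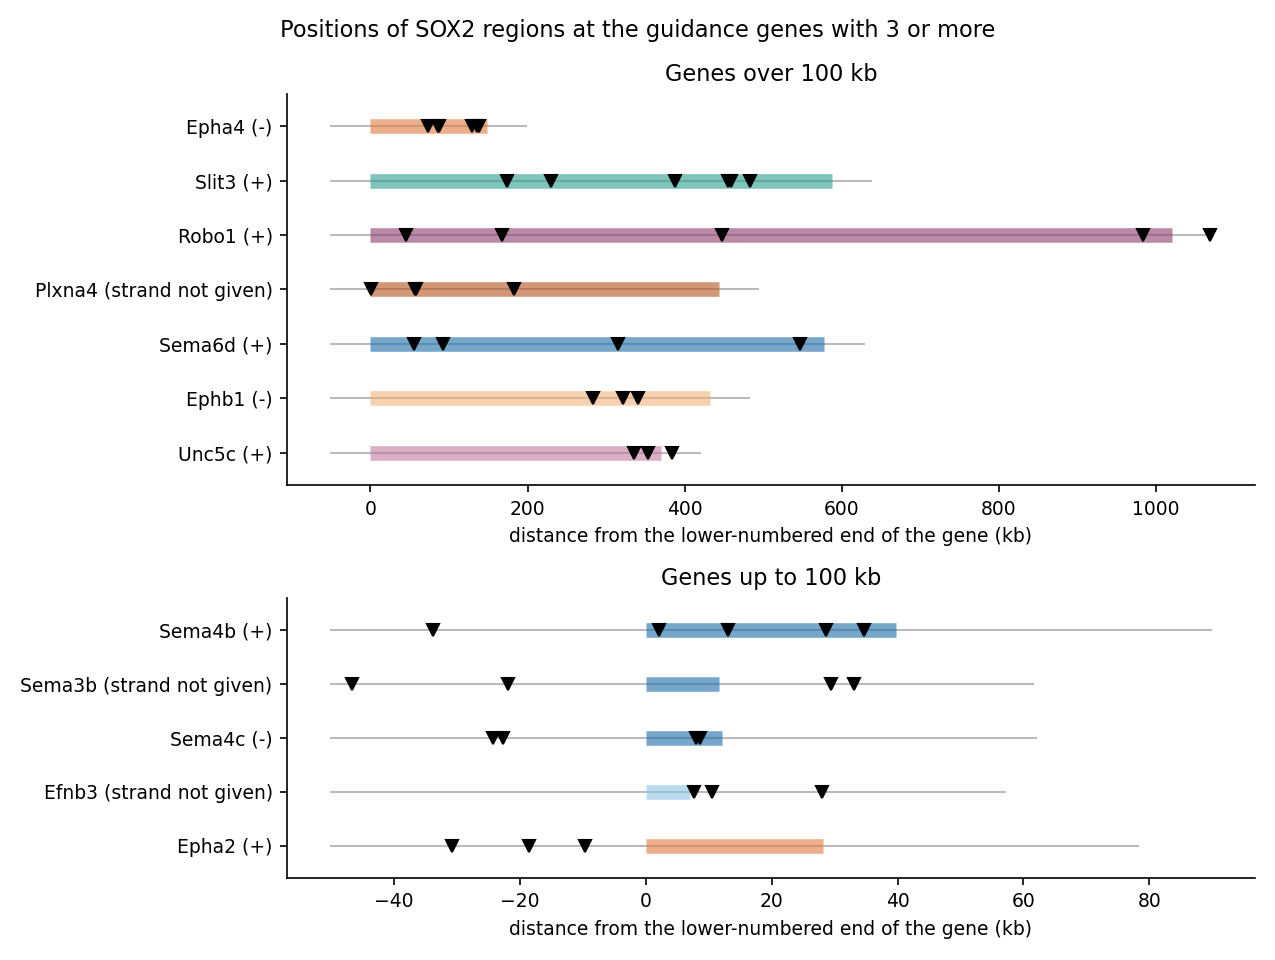
Positions of asynchronous SOX2 regions (black triangles) at the 12 guidance genes with 3 or more, as distance in kb from the lower-numbered end of the gene. Coloured bars are genes, grey lines the 50 kb windows around them, and the strand is given beside each name where RefSeq promoters give one. The 6 regions of Epha4 and of Slit3 lie inside the gene, and those of Sema3b and Epha2 all lie outside it.

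Over the 85 regions, 51 (60.0%, exact interval 48.8 to 70.5%) lay inside the member and more than 1 kb from its ends, 4 (4.71%, 1.30 to 11.6%) within 1 kb of an end, and 30 (35.3%, 25.2 to 46.4%) further outside. For length-matched genes these shares were 57.0%, 3.53% and 39.5%. The intervals treat the 85 regions as separate draws. Since 12 members hold 50 of them, they are not independent and the intervals are likely too narrow. The 4 at gene ends were those of Efnb3, Epha7, Ephb6 and Plxna4. Of the 48 regions inside members of known strand, 30 (62.5%) lay nearer to the 5′ than to the 3′ end, against 49.8% for all genes. Without Epha4, which had 5 of them, it was 25 of 42 (59.5%). Several of these regions share a gene and are not independent, this share has no length-matched value, and the difference was not tested. The member was the nearest gene for 65 of the 85 regions (76.5%), and for 7 members with regions it was the nearest gene of none of them. Counted by nearest gene, members averaged 1.10 regions, against 1.02 for length-matched genes, so nothing particular to these genes is read from the share.

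Some member regions came in close pairs. Another asynchronous region lay within 5 kb for 20 of the 85 (23.5%), against 11.6% of the 8022 regions near any autosomal protein-coding gene. These 20 are 10 pairs at 8 genes with both partners counted, so they are not independent and no interval is given. Epha4 and Sema4c each had 2 such pairs, and Efna1, Efnb3, Plxna4, Sema3b, Sema5b and Slit3 each had 1. The closest pair, 0.553 kb apart, was that inside Sema4c. This limit was chosen after the values were seen, and the difference was not tested.

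The median width was 303 bp at the guidance genes (quartiles 243 and 413 bp), against 289 bp (quartiles 226 and 382 bp) for all autosomal regions. The widest after that near Efna2 were a region near Efna1 (574 bp), the one at the end of Plxna4 (554 bp), one inside Ephb1 (550 bp) and, at 536 bp each, regions of Robo1 and Epha1. At the smallest width of the list, 183 bp, were 6 regions, at Epha2, Epha6, Sema6a, Sema6d, Sema7a and Slit3. With ties at their mean rank, this width stands at percentile 2.22 of all asynchronous regions, and no excess is read from the 6. Widths also depend on depth and do not rank binding.

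The window of 50 kb decided some calls. The outermost regions counted were those of Robo1 at 49.4 kb, Sema3b at 46.7 kb and Efna1 at 45.7 kb. The members nearest to it without a region were Sema3f at 50.8 kb, Sema4d at 52.3 kb, Epha10 at 56.4 kb and Plxnb1 at 57.5 kb. Sema3a followed at 70.5 kb, Sema3g at 79.0 kb, Efna3 at 86.4 kb and Sema6b at 99.9 kb, and Efna4, Plxna2 and Plxnb2 had theirs at 106, 114 and 198 kb. The nearest was 244, 281, 297 and 466 kb away for Sema3d, Sema6c, Sema3c and Epha8. Over the 21 members without a region the median distance was 184 kb. Within 10 kb, 29 of 59 members (49.2%, exact interval 35.9 to 62.5%) had a region, against 42.6% of length-matched genes and 24.7% of all genes. Inside the gene itself it was 24 members (40.7%, 28.1 to 54.3%), against 36.0% of length-matched genes and 15.4% of all genes.

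The windows of the guidance genes held no mitotic region. By the limit of 3 counts, 0 of 59 genes is compatible with at most 5.08% (exact upper bound 6.06%). The share was 0.983% for length-matched genes and 0.886% for all genes, so that 0.58 members would be near a mitotic region at the length-matched share. An absence near these genes was therefore not detectable with 84 regions. The nearest mitotic region was 59.9 kb from Sema4a, at chromosome 3, 88375987 to 88376134. The next were 347 kb from Ephb4 and 364 kb from Efna2. None of the 85 asynchronous regions overlapped a mitotic one, which follows from the lack of mitotic regions in these windows and is no separate result.

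Other genes of the guidance pathways were near asynchronous regions in a somewhat higher share than their length-matched genes, whose share lay inside the exact interval. Of 46 listed netrins, co-receptors, adaptors and effectors, 34 had one within 50 kb (73.9%, exact interval 58.9 to 85.7%), against 59.9% of length-matched genes and 47.2% of all autosomal protein-coding genes. They averaged 1.57 regions per gene, against 1.27 for length-matched genes. Nrp2, the co-receptor of class 3 semaphorins, had 6 regions, and its relative Nrp1 had 1. Dscam, a netrin receptor, and Srgap3, an effector of Robo signalling, had 5 each, and the netrin gene Ntn1 had 4. Dcc, the attractive netrin receptor, had none along 1098 kb, where length-matched genes averaged 3.98. Of the 46 genes, 1 had a mitotic region within 50 kb, as did 0.886% of all autosomal protein-coding genes. This was Mical3, which encodes an actin-oxidising enzyme downstream of plexins, with 2 mitotic regions beside 3 asynchronous ones. No excess is read from 1 gene.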

How the data were processed

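ChIP and input libraries were sequenced in mitotic and asynchronous cells, with 3 replicates per group. Per the submitters' processing notes, Bowtie2 2.2.1, MACS2 (version not given in the sources used here) and mm10 were used. The deposited values are peak starts and ends in bp (unit: other), called by the authors per condition on pooled replicates; there is no score, p-value or read count, and depth is unknown.

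Starts were converted to count from 1, and 181 of 10532 asynchronous entries that repeated coordinates were merged. Gene spans came from RefSeq (GRCm38.p6). A region was near a gene when its midpoint lay within 50 kb of the span. Each member was compared with the 100 non-member genes nearest in span. Shares have exact (Clopper-Pearson) 95% intervals. No significance test was run. Members and lists were chosen with earlier results of these data known. In the text, every member is accounted for, and those with most regions, at gene ends, without regions or with the widest regions are given in full. Counting was checked on simulated regions (Python 3.11.15, numpy 2.4.6, scipy 1.17.1). Alternatives were other distances, nearest gene, wider regions, other length matches and other readings of the symbol rule. Exons, the genome sequence and the strand of 8 members were not used here.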

Additional observations from a re-analysis of the deposited data

How the results depend on the processing

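No paired analysis was possible because each condition has 1 list called on pooled replicates, and for the same reason no replicate could be left out. The literal symbol rule (Unc50 in, Unc5a to Unc5d out) and the alternatives for other pathway genes were chosen after seeing the data. Of 74 recomputed values over 7 results, 57 stayed within their interval or within 1.5 times. The share of guidance genes with a region stayed above that of length-matched genes in every setting run, by 2.23 to 8.24 percentage points. All settings recount largely the same genes and regions, so this adds nothing to the main result. There the length-matched share lay inside the exact interval, and no excess is read. The difference in mean regions per gene ran between -0.07 (100 kb) and 0.21 (10 classes of span length).

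The values that moved were these. Within 10 kb the shares were 49.15% of guidance genes and 42.63% of length-matched genes, and 22 of the other pathway genes had a region. Within 100 kb they were 77.97% and 74.02%, and 1 guidance gene had a mitotic region. Inside the gene they were 40.68% and 35.98%, with 53 regions, 0.898 per gene, and 17 other pathway genes. With regions wider than the median they were 45.76% and 40.51%, with 47 regions and 0.797 per gene. By nearest gene the length-matched share was 44.31%. With 10 classes of span length, 7 stems stood above their length-matched mean, in place of 4. Robo, Epha and Unc5 changed, with length-matched means of 1.26, 1.36 and 1.44, against 2.30, 1.60 and 1.60 in the main setting. Their own means stayed the same, and the cause was not tested. The difference of a stem's mean from its length-matched mean turned sign for 7 of 9 stems under at least 1 setting. Over all settings it ran from -0.05 to 0.43 for Sema, -0.44 to 0.39 for Ephb and -0.31 to 0.37 for Efna. It ran from -0.27 to 0.21 for Epha, -0.71 to 0.05 for Plxn, -1.09 to 0.49 for Robo and -0.265 to 0.14 for Unc5a to Unc5d. Under the literal symbol rule the Unc5 stem holds Unc50 alone, with a difference of -0.67. The difference stayed above 0 for Efnb (0.34 to 2.13) and Slit (0.04 to 0.79). With unknown depth and 84 mitotic regions, absences near single genes are not informative.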
